A study of Hevea brasiliensis with 6 samples.

Results

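The comparison described here is that of leaves of the rubber tree clone ‘93-114’ after 24 h at 4 °C with unchilled control leaves of the same clone. Its members are all unigenes, that is assembled transcript sequences, with at least 1 fragment in either of these libraries, which are 159872 of the 167072 unigenes read in the series. Each library was made from mixed leaves of 3 seedlings, 1 year old and at the stage of 2 extension units. A fragment is a sequenced piece of cDNA that was assigned to a unigene. Both groups are of the same clone and age, and the labels give the cold as the difference between them. The series also holds ‘93-114’ after 1 h of cold and the clone ‘Reken501’ at the same time points, with 1 pooled library for each condition. With 1 library a side the differences have no replicate check, and the trees within a pool cannot be told apart. All error estimates given here cover counting error only.

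The rubber tree is a tropical species, and its leaves are injured by chilling. In plants studied in detail, such as Arabidopsis, chilling is perceived within minutes, and transcription factors of the CBF/DREB family then switch on genes for protective proteins, membrane lipids and sugars. Photosynthesis and growth slow down over the following hours, and the levels of many transcripts change with them. The study describes ‘93-114’ as the cold-resistant and ‘Reken501’ as the cold-sensitive clone. The deposited tables give unigene IDs and lengths but no gene names, and 0 of them matched an ID in the RefSeq annotation of the species, which lists 50196 genes. Pathways, leaf marker genes and the roles of single unigenes were therefore not analysed here, and the members are described by their level, length, cluster and change.

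The library of ‘93-114’ after 24 h held 21.9 M fragments and that of its control 20.4 M. Of the members, 138039 had fragments in both libraries, 10416 only after 24 h and 11417 only at control. Many were read rarely, since 18821 had 4 fragments or fewer over both libraries and 90058 (56.3%) averaged 10 or more and are called countable here. The lengths of the members ran between 150 and 16715 bases with a median of 426. By their names, 65978 were contigs of 16079 clusters of related sequences, and 93894 stood alone. A total of 7200 unigenes had no fragment in either library, and 1952 of them had at least 10 fragments in a library of ‘Reken501’.

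A unigene was called up-regulated (raised) or down-regulated (lowered) when its log2 ratio, up or down, reached 1 and its adjusted p in an exact test of the fragments of both libraries was 0.001 or less. Such a test compares the libraries and not the conditions. Relative to the library totals, 4804 unigenes (3.0% of those tested) were raised after 24 h of cold and 19954 (12.5%) were lowered, while 135114 were not called. Of all calls, 19.4% were thus upward. Relative to TMM factors, which set the bulk of the unigenes at no change, 10665 were raised (6.67%) and 4411 lowered (2.76%), and 70.7% of the calls were upward. The distance between these scales was 0.68 on the log2 scale. The amount of RNA per leaf was not measured, and which scale is nearer to the content of the cells cannot be read from these libraries.

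Since TMM factors moved every ratio up by the same amount, the unigenes raised relative to the totals were also raised with TMM factors, and those lowered with TMM factors were also lowered relative to the totals. The choice of scale thus settled the call of the unigenes in between. These were 15543 (77.9%) of the unigenes lowered relative to the totals, which were not called with TMM factors, and 5861 that were raised with TMM factors only. The plot of the ratio against abundance shows both zero lines.

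**Figure D1:**
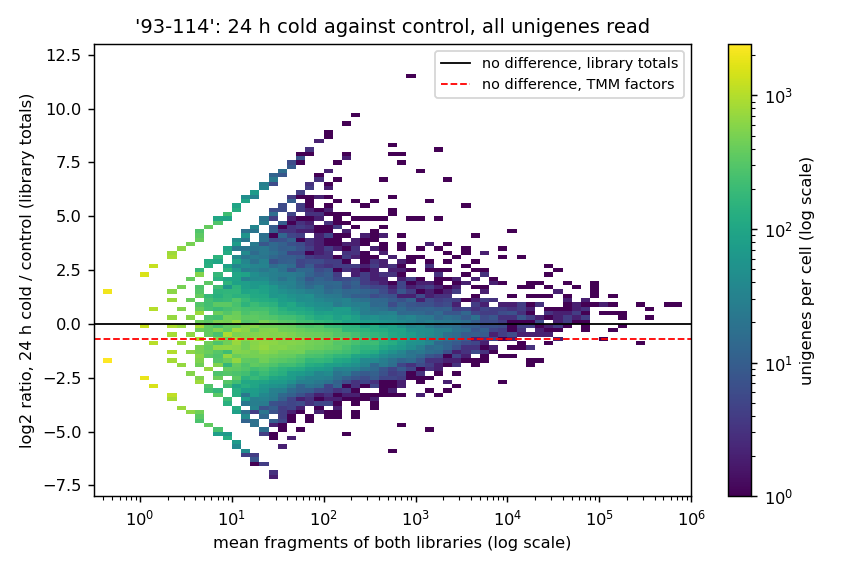
Log2 ratio of 24 h cold to control in ‘93-114’ (y axis, library totals) against the mean fragments of both libraries (x axis, log scale) for all 159872 unigenes read, with colour giving the number of unigenes per cell on a log scale. The black line marks no difference relative to the totals and the dashed red line no difference with TMM factors, 0.68 lower, near the bulk of the unigenes.

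The countable unigenes had a median log2 ratio of 24 h cold to control of -0.70 relative to the totals, and 75.9% of their ratios were below 0. The quartiles were -1.30 and -0.031. With TMM factors the median was -0.020 with quartiles of -0.62 and 0.65. The tails were unequal on both scales. The 1st and 99th percentiles were -3.46 and 4.42 relative to the totals and -2.78 and 5.10 with TMM factors.

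Raised unigenes changed by larger folds than lowered ones. Relative to the totals, 3326 raised unigenes (69.2%) and 7095 lowered ones (35.6%) changed at least 4-fold, and 1498 raised (31.2%) and 998 lowered ones (5.0%) at least 16-fold. At a log2 ratio of 6 or more in size there were 268 raised and 26 lowered unigenes. With TMM factors 2789 raised (26.2%) and 248 lowered unigenes (5.62%) changed at least 16-fold. The difference remained among unigenes whose mean count over both libraries was 100 fragments or more. Of these, 317 of 944 raised unigenes (33.6%) and 612 of 5805 lowered ones (10.5%) changed at least 4-fold, and 78 raised and 10 lowered ones at least 16-fold. This limit applies to the mean, so the lower library could still hold few fragments. At control, 5 of the 317 had 0. These folds rest on 0.5 fragments added to each count, so that folds of unigenes with 0 fragments in a library depend on that addition.

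**Figure D2:**
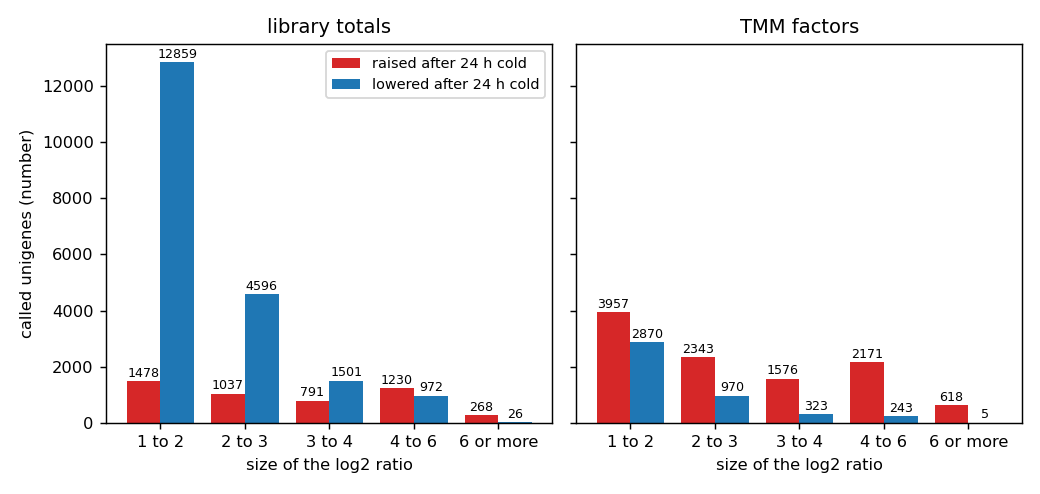
Number of called unigenes (y axis) by the size of their log2 ratio (x axis), raised in red and lowered in blue after 24 h of cold, relative to library totals (left) and to TMM factors (right). Lowered unigenes outnumber raised ones below a size of 4 relative to the totals, whereas raised ones are the more numerous at 4 to 6 (1230 against 972) and at 6 or more (268 against 26).

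Unigenes with at least 10 fragments in one library and 0 in the other were counted next. After 24 h, 1995 unigenes had at least 10 fragments and 0 at control, with a median of 15 fragments, and 1338 had at least 10 at control and 0 after 24 h, with a median of 13. At a minimum of 30 fragments these numbers were 312 present only after 24 h and 26 present only at control. At 100 fragments they were 21 and 0. The highest count was 1637 fragments after 24 h among the first group and 62 at control among the second. Of the 1995 and 1338 unigenes at the minimum of 10, 1046 and 693 were called relative to the totals. A count of 0 allows up to 3 fragments, so that these unigenes were not detectable rather than absent. Of the 312 unigenes with at least 30 fragments only after 24 h, 249 had a fragment after 1 h of cold and 7 had 30 or more. Of all 167072 unigenes of the series, 145375 had a fragment in that 1 h library. Of the 26 present only at control, all 26 had a fragment after 1 h and 1 had 30 or more. In ‘Reken501’, 129 of the 312 had at least 30 fragments after 24 h, and 58 of these had 0 at its control. Another 14 of the 312 had no fragment in either library. Of the 26, 4 had at least 30 fragments at the control of ‘Reken501’, and 0 of these had 0 after 24 h. The share of all unigenes with at least 30 fragments in the 1 h or ‘Reken501’ libraries is not given here.

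The most-read unigenes took a larger part of the library after cold. In the 24 h library 156 unigenes held 50% of the fragments, against 788 in the control library. The 10 most-read unigenes of each library held 18.0% after 24 h and 12.8% at control, and the 1000 most-read held 66.8% and 52.2%. In ‘Reken501’, 445 unigenes held 50% of the fragments after 24 h, against 708 at control. The 1 h library of ‘93-114’ needed 145 unigenes, close to the 24 h library of the same clone. With the contigs of each cluster summed, the 24 h library of ‘93-114’ needed 112 clusters or single unigenes and its control 515.

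**Figure D3:**
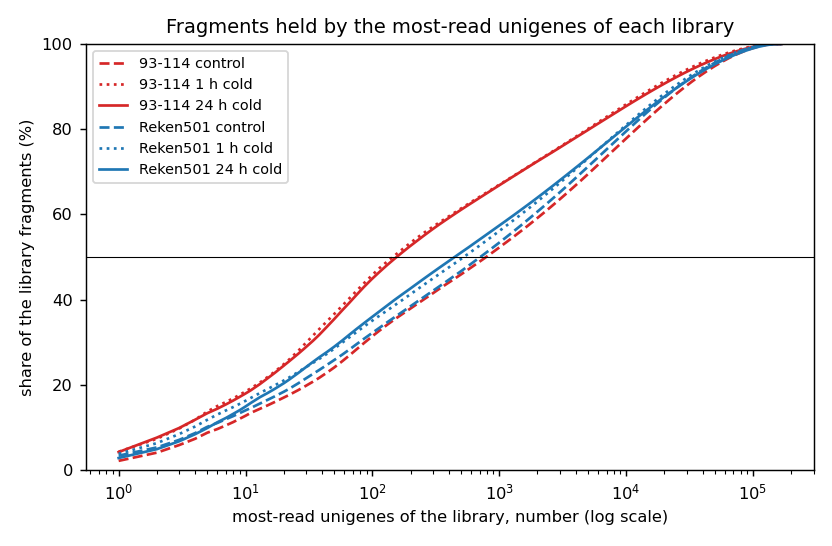
Cumulative share of library fragments (y axis, percent) held by the most-read unigenes of each library (x axis, number on a log scale), ‘93-114’ in red and ‘Reken501’ in blue, dashed at control, dotted after 1 h and solid after 24 h of cold. The 24 h and 1 h curves of ‘93-114’ run together above the other 4 and cross 50% at 156 and 145 unigenes.

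The gain and the loss of fragments were spread over very different numbers of unigenes. Shares that grew between control and 24 h added up to 25.2 percentage points of the library, over 48729 unigenes, and 50% of this gain fell on 33 unigenes. The loss was spread over 111143 unigenes, and 3526 of them made up 50% of it. The 33 unigenes held 27.7% of the fragments after 24 h and 15.01% at control. Each of them averaged 27069.5 fragments or more, and their median length was 1971 bases. Only 15 of them were called raised relative to the totals, because their median log2 ratio was 0.96, against 3.0% of all tested unigenes. With TMM factors 32 were raised, against 6.67% of all tested. They were chosen by their gain in these libraries, so that their calls here are no separate result and show no enrichment. Their share in other libraries is a separate measurement. In ‘Reken501’ they held 19.2% of the fragments after 24 h and 16.3% at control.

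The part of the library held by the called unigenes varied with the scale. Relative to the totals, the raised unigenes took 13.6% of the fragments after 24 h and 4.27% at control, and the lowered ones 6.62% and 18.6%. The unigenes that were not called held 79.8% after 24 h and 77.1% at control. Called with TMM factors, the raised unigenes took 51.1% after 24 h and 27.8% at control, and the lowered ones 1.06% and 4.64%. Of the 100 most-read unigenes of the 24 h library, 82 were also among the 100 most-read at control. Of the 100 of the 24 h library 23 were raised and 0 lowered relative to the totals, and of the 100 of the control library 11 were raised and 5 lowered. With TMM factors 72 were raised and 0 lowered of the 24 h list, and 54 and 3 of the control list. The lists of the 1000 most-read shared 771 unigenes. Relative to the totals 148 of the 24 h list were raised and 45 lowered, and of the control list 46 and 168. With TMM factors these numbers were 413 and 6, and 223 and 37. Over all tested unigenes 3.0% were raised and 12.5% lowered relative to the totals, and 6.67% and 2.76% with TMM factors. Each list was ranked by a library of the ratio. That by itself favours raised unigenes in the 24 h lists and lowered ones in the control lists.

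The ratio varied with the level of the unigene. The median log2 ratio relative to the totals was -0.70 among the 42436 members averaging 10 to 30 fragments, -0.72 among the 12489 with 100 to 300 and -0.37 among the 1353 with 1000 to 3000. It was 0.0054 among the 396 with 3000 to 10000 and 0.35 among the 202 with 10000 or more. These classes contain the libraries compared. Classed instead by the mean of the ‘Reken501’ libraries, which enter no ratio here, the median was -0.71 at 10 to 30 fragments, -0.75 at 100 to 300, -0.49 at 1000 to 3000, -0.12 at 3000 to 10000 and 0.27 at 10000 or more. With TMM factors the last class had a median of 0.95, and 48.2% of its 195 unigenes were raised and 1.54% lowered. The share of lowered unigenes relative to the totals was 33.1% in the class of 100 to 300 fragments and 4.10% in that of 10000 or more.

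**Figure D4:**
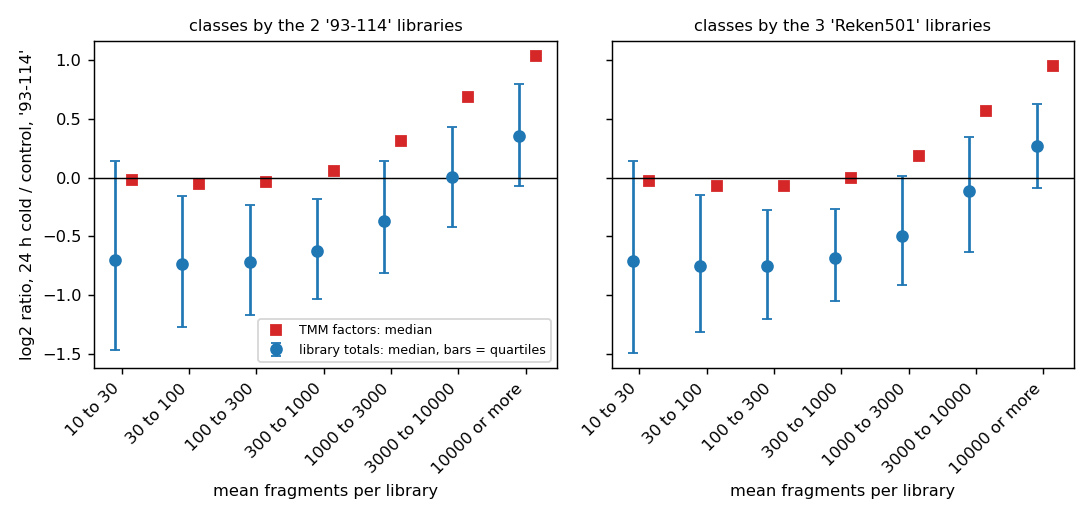
Median log2 ratio of 24 h cold to control in ‘93-114’ (y axis) by class of mean fragments (x axis), for classes formed from the ‘93-114’ libraries (left) and from the ‘Reken501’ libraries (right). Blue points and bars are medians and quartiles relative to library totals and red squares medians with TMM factors, and in both panels the median is highest in the class of 10000 fragments or more (0.35 and 0.27 relative to the totals).

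The spread of the ratios was wider than counting error. For members averaging 100 to 300 fragments the interquartile range of the log2 ratio was 0.94, and counting error alone would give 0.232. Among those with 10000 or more it was 0.87, against 0.019 from counting. The additional spread holds differences between the pools of trees as well as those between the temperatures, and these cannot be told apart with 1 library a side.

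Short unigenes were raised more often than long ones. Of the countable unigenes, 6.23% of those under 300 bases, 7.38% of those of 300 to 500 bases and 2.14% of those of 2000 bases or more were raised, and 12.9%, 15.4% and 24.98% were lowered. The median log2 ratio was -0.61 under 300 bases and -0.73 at 2000 bases or more. Within a class of like counts, an average of 100 to 300 fragments, 9.70% of 330 unigenes under 300 bases and 3.06% of 3793 of 2000 bases or more were raised. In that class 30.6% of the short and 34.7% of the long unigenes were lowered relative to the totals, whereas with TMM factors the order was reversed, at 8.18% and 6.35%. The raised shares with TMM factors were 20.0% of the short and 11.5% of the long ones. Of the countable unigenes that stood alone 6.85% were raised and 19.3% lowered, and of those that were contigs of clusters 2.86% and 23.3%.

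Contigs of a cluster share sequence, and the counting could have split fragments between them. Of the 15169 clusters with at least 2 tested contigs, 2469 had 2 or more called contigs. Relative to the totals, all called contigs were lowered in 2148 of these clusters and raised in 179, while 142 (5.75%) held both raised and lowered contigs. All contigs taken singly had the same tilt, with 1358 (2.06%) raised and 10895 (16.5%) lowered. With the fragments of each of the 142 clusters summed, 125 were no longer called, 12 were lowered and 5 raised. With TMM factors the direction turned, as it did over all unigenes, of which 10665 were raised and 4411 lowered. There were then 320 clusters of lowered and 618 of raised contigs only among 1057 with 2 or more called. A further 119 held contigs called in both directions, and 107 of them were not called as a sum.

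The files pair no unigene with a gene, so that only 2 raised and 2 lowered unigenes are given by ID. In each direction they were picked among unigenes called both relative to the totals and with TMM factors. The first has the largest change in its share of the library. The second has the largest log2 ratio among those with at least 1000 fragments in the higher library. The raised unigene with the largest gain was CL2819.Contig2_All, of 1965 bases. It had 188164 fragments after 24 h, against 72327 at control, which is 0.858% and 0.355% of the library. The other contig of its cluster was called lowered, and the cluster as a sum had 188164 fragments after 24 h and 72340 at control. The contig's own log2 ratio was 1.27 (95% exact interval 1.26 to 1.28) relative to the totals and 1.95 with TMM factors. After 1 h it lay between both levels, with 126045 fragments. In ‘Reken501’ it had 121552 fragments after 24 h and 71229 at control, a log2 ratio of 0.75, which is below the limit of a call. It was thus higher after 24 h in both clones. After 1 h it had 52110 fragments in ‘Reken501’, below the control of that clone.

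The raised unigene with the largest ratio was Unigene20668_All, of 1238 bases. It had 1637 fragments after 24 h and 0 at control in ‘93-114’, at least 507-fold higher when 3 fragments are taken for the count of 0. After 1 h it had 68 fragments. In ‘Reken501’ it had 2193 fragments after 24 h, against 9 at control, a log2 ratio of 7.83, and 172 after 1 h. In every cold library it was thus read more than at the control of that clone. Per kilobase and per M fragments its level after 24 h was 60.3 in ‘93-114’ and 82.0 in ‘Reken501’.

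The lowered unigene with the largest loss was Unigene2081_All, of 884 bases. It had 12446 fragments after 24 h, against 37436 at control, a log2 ratio of -1.70 (95% exact interval -1.73 to -1.67) relative to the totals and -1.02 with TMM factors. Its count after 1 h, 6042 fragments, was below that after 24 h. In ‘Reken501’ it had 10787 fragments after 24 h and 42519 at control, with 29136 after 1 h. It was thus lower after 24 h in both clones.

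The lowered unigene with the largest ratio, Unigene12570_All of 2035 bases, had 96 fragments after 24 h and 2830 at control. The log2 ratio was -4.98 (95% exact interval -5.30 to -4.69) relative to the totals and -4.30 with TMM factors. After 1 h it had 257 fragments, between both levels. In ‘Reken501’ it had 44 fragments after 24 h and 1020 at control, a log2 ratio of -4.55.

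The most-read unigene of both libraries, CL15970.Contig2_All of 2286 bases, was chosen after its values were seen. It had 928644 fragments after 24 h (4.24% of the library) and 442634 at control (2.17%). Its log2 ratio of 0.96 (95% exact interval 0.96 to 0.97) was just below the limit of a call relative to the totals, and at 1.64 it was called raised with TMM factors. In ‘Reken501’ it had 613616 fragments after 24 h and 717264 at control, a log2 ratio of -0.25, or -0.15 with TMM factors. It was therefore higher after 24 h in ‘93-114’ and lower in ‘Reken501’, a difference between single libraries. After 1 h it had 644057 fragments in ‘93-114’ and 819592 in ‘Reken501’, each above the control of that clone.

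**Figure D5:**
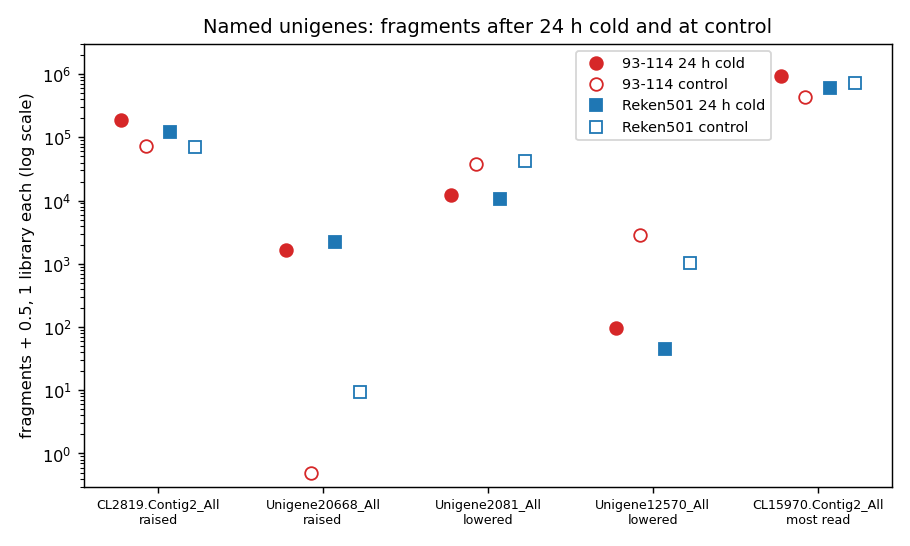
Fragments plus 0.5 (y axis, log scale, 1 library per point) of the named unigenes (x axis) after 24 h of cold (filled) and at control (open), in ‘93-114’ (red circles) and ‘Reken501’ (blue squares). The first 4 unigenes differ in the same direction in both clones, and the most-read CL15970.Contig2_All was higher after 24 h in ‘93-114’ and lower in ‘Reken501’.

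The called unigenes were then followed in ‘Reken501’, whose libraries share no sample with those of ‘93-114’. The 4804 unigenes raised in ‘93-114’ had a median log2 ratio of 2.30 between 24 h and control in ‘Reken501’, and the 19954 lowered ones had a median of -0.45. Over all countable unigenes of ‘93-114’ it was -0.071. Of the raised unigenes 2102 (43.8%) were also called raised in ‘Reken501’, where 4.0% of all tested unigenes were raised. They made up 32.8% of the unigenes raised in that clone, against 3.0% of all tested raised in ‘93-114’. Of the lowered unigenes 2714 (13.6%) were also lowered in ‘Reken501’, where 3.67% of all tested unigenes were lowered, and they made up 46.2% of that clone's lowered unigenes, against 12.5% of all tested lowered in ‘93-114’. With TMM factors in both clones, 3350 unigenes were raised in both. They were 31.4% of those raised in ‘93-114’, against 4.7% of all tested unigenes raised in ‘Reken501’, and 44.5% of those raised in ‘Reken501’, against 6.67% of all tested raised in ‘93-114’. A total of 988 were lowered in both, or 22.4% of those lowered in ‘93-114’ (2.88% of all tested were lowered in ‘Reken501’) and 21.4% of those lowered in ‘Reken501’ (2.76% of all tested were lowered in ‘93-114’).

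The ratios of raised unigenes in ‘Reken501’ grew with their size in ‘93-114’ more than those of lowered unigenes. Classes and medians are first given relative to the totals. Unigenes raised with a log2 ratio of 1 to 2 in ‘93-114’ had a median of 0.97 in ‘Reken501’, those of 2 to 3 a median of 2.05, those of 3 to 4 a median of 3.14 and those of 4 or more a median of 4.06. The corresponding classes of lowered unigenes had medians of -0.36, -0.66, -0.76 and -0.81. Low counts were frequent among the largest changes, and 1046 of the 1498 unigenes raised by 4 or more had 0 fragments at control. Called unigenes averaging 100 fragments or more in ‘93-114’ and changed at least 4-fold there were set apart. Of these, 244 of 317 raised ones (77.0%) were raised in ‘Reken501’, with a median of 2.30. There 308 of 612 lowered ones (50.3%) were lowered, with a median of -1.09. Over all countable unigenes 5.54% were raised and 5.48% lowered in ‘Reken501’. No share over all unigenes averaging 100 fragments or more is given here. No test of the difference between the clones was made, since each has 1 library per time point.

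In terms of level, the raised unigenes had a median of 4.79 fragments per kilobase and per M after 24 h and 0.535 at control in ‘93-114’. In ‘Reken501’ their medians were 2.73 after 24 h and 0.42 at control. The lowered unigenes had medians of 1.26 and 4.61 in ‘93-114’ and of 2.08 and 3.09 in ‘Reken501’. The raised unigenes took 7.62% of the fragments of ‘Reken501’ after 24 h and 4.23% at its control, and the lowered ones 11.0% and 16.5%.

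The 1 h library of ‘93-114’ was set beside these values, although its ratio shares the control library. The median log2 ratio to control of the unigenes raised after 24 h was 1.44 after 1 h and 2.88 after 24 h, and that of the lowered ones was -1.33 after 1 h and -1.70 after 24 h. Over the countable unigenes it stood at -0.74 after 1 h and -0.70 after 24 h. Of the control, 1 h and 24 h libraries the raised unigenes held 4.27%, 14.3% and 13.6% of the fragments, and the lowered ones 18.6%, 8.10% and 6.62%. The median level of the raised unigenes, per kilobase and per M fragments, stood at 0.535 at control and reached 1.27 after 1 h and 4.79 after 24 h.

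Because the spread between pools is unknown, the calls were repeated in edgeR with a spread that was assumed. With 0.2 as the coefficient of variation between pools, 1766 unigenes were raised and 2342 lowered relative to the totals, and with 0.4 these numbers were 55 and 1. CL2819.Contig2_All and Unigene2081_All were not called at 0.2, Unigene12570_All was called at 0.2 but not at 0.4, and Unigene20668_All was called at both. The 55 unigenes had a median log2 ratio of 7.58, and 21 of them had 0 fragments at control. Their median level per kilobase and per M fragments was 19.9 after 24 h and 0.057 at control in ‘93-114’, against 11.0 after 24 h and 0.123 at control in ‘Reken501’. Their calls in the other comparisons come from the exact test without an assumed spread, a weaker limit than the one that chose them. In ‘Reken501’ 52 of the 55 were called raised and 0 lowered, where 4.0% of all tested unigenes were raised and 3.67% lowered. Over the countable unigenes of ‘93-114’, 5.54% were raised there. After 1 h in ‘93-114’ 19 of the 55 were called raised, against 1.44% of all tested unigenes. The 1 h ratio shares the control library by which the 55 were chosen.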

How the data were processed

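Leaf RNA of ‘93-114’ and ‘Reken501’ was sequenced in 6 pooled libraries. Adapters and reads of low quality were removed by the authors. In the study's methods reads were mapped to the genome with HISAT and genes counted with RSEM, whereas the deposited tables hold assembled unigenes. How these were assembled and counted is not given in the sources used here. The authors deposited 4 tables with the raw count of fragments per unigene, its length, and an FPKM that equals the count per kilobase and per M fragments to within 5.0e-05. Columns of the authors' own comparisons (log2 ratio, direction, p-value, false discovery rate) were not used.

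Counts were joined over the tables, in which a missing unigene has 0 fragments. Ratios were taken after adding 0.5 fragments. Calls rest on the exact binomial test of a unigene's counts given their sum, two-sided, adjusted by Benjamini-Hochberg over all 159872 unigenes read, at an adjusted p of 0.001 and a log2 ratio of 1, the limits of the study. The test was tried on simulated data. Libraries were scaled to totals (20.4 to 21.9 M fragments) and, beside these, by edgeR 4.0.16 TMM factors of both libraries. Alternatives were DESeq2 1.42.0 size factors, TMM factors over 6 libraries, totals without the 100 most-read unigenes, other limits, clusters summed, and an exact test in edgeR at a set coefficient of variation. Medians used a mean of at least 10 fragments. Intervals are at the 95% level. Python 3.11.15, numpy 2.4.6, pandas 2.3.3, scipy 1.17.1 and R 4.3.3 were used. The rule for named unigenes stands beside them. Members, lists and alternatives were chosen with earlier results of these data known.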

Additional observations from a re-analysis of the deposited data

Results flagged for a closer look

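The share of called unigenes that were raised after 24 h, relative to library totals, was 19.4% in ‘93-114’ and 52.2% in ‘Reken501’, on opposite sides of 50%. With TMM factors it was 70.7% and 62.0%, on the same side. The log2 ratio of CL15970.Contig2_All after 24 h was 0.96 in ‘93-114’ and -0.25 in ‘Reken501’, which are opposite directions on both scales. Its level after 1 h, per kilobase and per M fragments, was above control in both clones. Neither difference was tested, since each clone has 1 library per time point. A total of 15 unigenes had at least 10 fragments in ‘93-114’ after 1 h and 0 both after 24 h and at control. The highest of these counts was 14.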

How the results depend on the processing

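Each condition has 1 library, so no library could be left out. No paired analysis was possible because each group holds 1 library, so that the groups share fewer than 2 replicate numbers. The raised and lowered unigenes numbered 10665 and 4411 with TMM factors of both libraries, 9952 and 5005 with TMM factors over 6 libraries, and 10626 and 4438 with DESeq2's size factors. Without the 100 most-read unigenes in the totals 10325 were lowered. The share that was raised was 70.7%, 66.5%, 70.5% and 39.9% under these scalings, and the median log2 ratio -0.020, -0.068, -0.023 and -0.38. An adjusted p of 0.05 gave 9576 raised and 35713 lowered (21.1% raised), a log2 ratio of 2 left 7095 lowered (31.9% raised), and a mean of at least 10 fragments gave 18.2% raised. Summing clusters left 13226 lowered (23.7% raised) with a median of -0.67, and 515 features for 50% of the control library. An assumed coefficient of variation of 0.2 left 1766 and 2342 (43.0% raised), and 0.4 left 55 and 1 (98.2%). Medians were -0.65 without a minimum and at a mean of at least 100 fragments.

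Members called with TMM factors held 51.1% (raised) and 1.06% (lowered) of the fragments after 24 h, and 27.8% and 4.64% at control. Unigenes read in 1 library only numbered 312 and 26 at 30 fragments, and 21 and 0 at 100, for 24 h and control. The named raised and lowered unigenes were picked among those called both with totals and with TMM factors. That they kept their direction under all 4 scalings follows from this rule and is no check. The 4 scalings also brought CL15970.Contig2_All past the limit of a call, at 1.29 to 1.64. The remaining counts and shares (11 settings) stayed within 1.5 times their value or within its interval. Depth bounds the calls, since the smallest sum of fragments called was 13.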
